A study of Mus musculus with 4 samples.

Results

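Arg1 and 8 further genes associated with wound macrophages (Thbs1, F13a1, Mrc1, Fn1, Tgfbi, Chil3, Ms4a7 and F10) were followed by symbol through single-nucleus RNA-seq of the mouse thalamus. All 9 genes were found in each of the 4 expression tables, out of 40091 genes over the tables. The genes were chosen by their UMI levels in macrophages of the haemorrhagic thalamus in these same libraries, so their levels in macrophages and over all nuclei are given below as a description, with no test. The mice were adult wild-type C57BL6 animals of about 7 to 8 weeks. The NS group was injected with 10 nl of saline and the COL group with 0.01 U of collagenase IV (Coll IV, an enzyme that digests the basement membrane of vessels and causes bleeding) in 10 nl, into the right ventral posterior medial and ventral posterior lateral nuclei of the thalamus. Tissue was taken on day 7. Each group had 2 libraries (NS 1 and NS 2, COL 1 and COL 2), each pooled from 3 mice, so a spread between libraries is a spread between pools, and both groups carried a needle track.

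Monocytes that enter a bleeding wound mature into macrophages, which clear dead cells and red cells and secrete matrix and clotting factors. In the brain they share the tissue with microglia, the resident macrophages, which are told from them by genes such as P2ry12 and Siglech. Arg1, the cytosolic arginase that splits arginine into ornithine and urea, is a classic gene of macrophages in wound repair, because ornithine feeds the synthesis of polyamines and of proline for collagen.

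Between 5931 and 10422 nuclei per library were kept, with a median of 4649 to 8691 UMIs per nucleus (a UMI marks one captured RNA molecule). Each nucleus was given to a cell type by its markers, none of which was among the 9 genes, and 1943 to 3728 nuclei per library led in no type and were left without one. The macrophage markers put 0 nuclei of NS 1, 4 of NS 2, 214 of COL 1 and 291 of COL 2 in the macrophage class, a difference of 4.11 percentage points of nuclei between the groups. An exact two-sided permutation test over the 4 libraries gave p = 0.333, the smallest value that 2 against 2 libraries allow. The COL macrophages held Lyz2 (781 and 1003 UMIs per 1000000 UMIs of the class, written CPM) and Ccr2, the receptor that draws monocytes out of the blood (261 and 304 CPM), and of the other markers on the same list Cd163, Lyve1 and Folr2 stood at 0.608 to 3.65 CPM, Pf4 at 121 and 127 CPM and Dab2 at 634 and 551 CPM. Siglech was at 2.62 and 9.12 CPM in them against 600 and 490 CPM in microglia of the same libraries, and P2ry12 at 56.8 and 99.1 CPM against 463 and 449 CPM. Lyz2, Ccr2, Siglech and P2ry12 are all among the markers that set these classes, so their levels here follow from that choice. The 4 macrophages of NS 2 held 7229 UMIs in all, with 0 of Ccr2, too few to set them apart by this gene (3 UMIs there are 415 CPM). Cd163 had 2 UMIs in them (277 CPM), against 1.75 and 0.608 CPM in the macrophages of COL 1 and COL 2. Dab2 had 19 UMIs in them (2628 CPM), above its COL level. At a median of 1943 UMIs they were shallower than the COL macrophages (4734 and 4981 UMIs). Between 8 and 31 cell barcodes were shared by any pair of libraries, none with the same UMI total.

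Arg1 (ENSMUSG00000019987, chr10:24915221-24927484 on the minus strand of mm10) was abundant in COL macrophages but unevenly spread over them. It gave 695 UMIs in the 214 macrophages of COL 1 and 687 UMIs in the 291 of COL 2, which is 608 CPM (95% Poisson interval 563 to 655) and 418 CPM (387 to 450), with a mean of 513 ± 134 CPM (SD, n = 2). Both intervals, like all intervals below, cover counting error only. Arg1 was seen in 94 macrophages of COL 1 and 100 of COL 2, and the 10% of macrophages with the most held 68.9% and 73.1% of its UMIs, up to 57 and 52 in a single nucleus. The median macrophage had 0 Arg1 UMIs in both libraries. The 4 macrophages of NS 2 had none, but 4 shallow nuclei set no useful limit.

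Thbs1, Fn1 and Tgfbi encode secreted matrix proteins: thrombospondin 1, which binds matrix and frees active TGF-beta, fibronectin, the first matrix laid down in a wound, and the TGF-beta-induced protein that links collagen to integrins. Thbs1 (ENSMUSG00000040152, chr2:118111876-118127133, plus strand) stood at 956 and 534 CPM in the macrophages of COL 1 and COL 2. Fn1 (ENSMUSG00000026193, chr1:71585520-71653200, minus strand) stood at 727 and 568 CPM, and Tgfbi (ENSMUSG00000035493, chr13:56609523-56639562, plus strand) at 1057 and 750 CPM. All 3 were higher in COL 1 than in COL 2, beyond counting error. They differed in their spread over nuclei: the 10% of macrophages with the most held 65.5% and 60% of Thbs1 UMIs and 55.4% and 62.2% of Fn1 UMIs, but 37.1% and 36.8% of Tgfbi UMIs, which was detected in 173 of 214 and 197 of 291 macrophages.

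F13a1 and F10 belong to blood clotting, as the subunit of factor XIII that crosslinks fibrin and as factor X, which turns prothrombin into thrombin once activated. F13a1 (ENSMUSG00000039109, chr13:36867178-37050244, minus strand) was the most even of the 9 after Tgfbi, with a median of 5 UMIs per macrophage in both libraries, at 1699 and 1900 CPM, and with 48 of 214 and 72 of 291 macrophages at 0. F10 (ENSMUSG00000031444, chr8:13037308-13056676, plus strand) stood at 226 and 179 CPM. F7, the gene of the clotting factor that starts the extrinsic pathway, ends 1498 bases before F10 on the same chromosome and was also held by macrophages, at 49.0 and 40.1 CPM against 0.637 and 0 CPM in microglia of the same libraries. The gene bodies of F13a1, Fn1 and Thbs1 overlap genes on the other strand, and whether reads were counted by strand is not given in the sources used here, so their reads cannot be told apart. The genes over F13a1, Gm49144 and Gm30489, had 73 to 154 and 45 to 71 UMIs per library over all nuclei, and Apol7d over Fn1 had 1 to 8. Gm29233 over Thbs1 was not among the 40091 genes counted.

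Mrc1 encodes the mannose receptor, an endocytic C-type lectin, Chil3 a secreted chitinase-like lectin known as Ym1, and Ms4a7 a membrane-spanning protein of the MS4A family that marks monocyte-derived and border macrophages. Mrc1 (ENSMUSG00000026712, chr2:14229392-14332057, plus strand) stood at 186 and 95.4 CPM in the macrophages of COL 1 and COL 2, and the 10% of nuclei with the most held 73.7% and 87.9% of its UMIs. Ms4a7 (ENSMUSG00000024672, chr19:11321039-11336146, minus strand) stood at 162 and 206 CPM, and Chil3 (ENSMUSG00000040809, chr3:106147554-106167564, minus strand) at 78.7 and 57.1 CPM, seen in 42 of 214 and 43 of 291 macrophages. Ms4a7 and F13a1 were the 2 of the 9 genes that were higher in COL 2 than in COL 1, and the other 7 were higher in COL 1. The 4 NS 2 macrophages held 20 UMIs of F13a1, 13 of Mrc1, 2 of Ms4a7 and 1 of Tgfbi, and none of Arg1, Thbs1, Fn1, Chil3 and F10. Mrc1 there was at 1798 CPM (interval 958 to 3075), above both COL libraries beyond counting error. F13a1 was at 2767 CPM (1690 to 4273), an interval that overlaps those of both COL libraries. These values rest on 4 nuclei of 1 library.

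**Figure D1:**
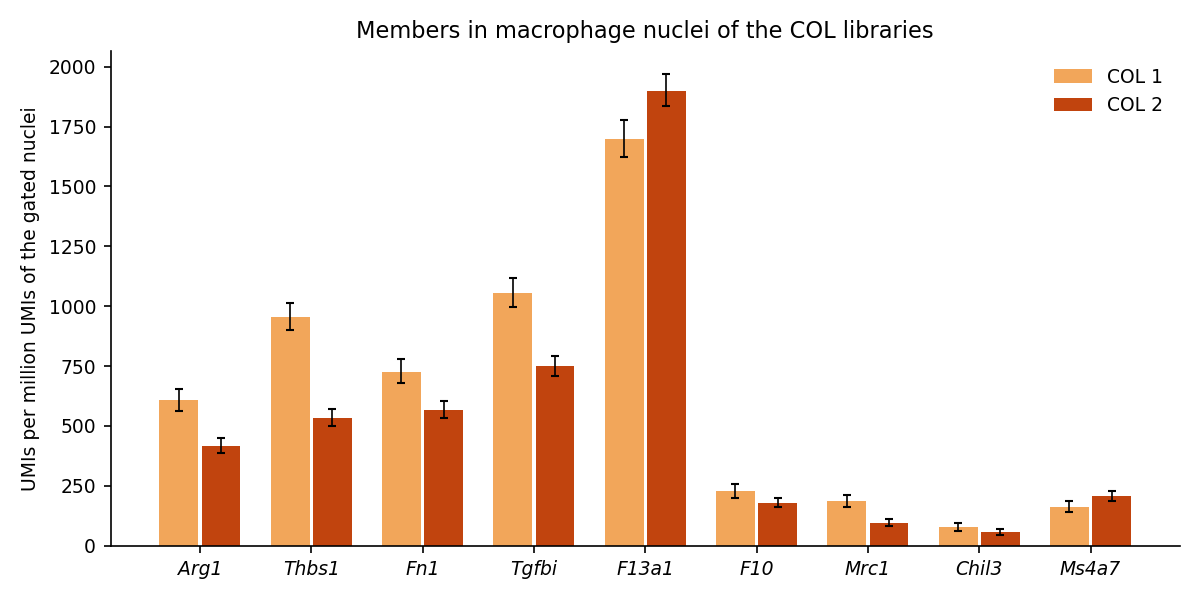
CPM of each gene in the macrophage nuclei (vertical axis) in COL 1 (214 nuclei) and COL 2 (291 nuclei), with 95% Poisson intervals that cover counting error only. COL 1 lay above COL 2 for 7 genes, Arg1 (608 and 418 CPM) among them, and below it for F13a1 (1699 and 1900 CPM) and Ms4a7 (162 and 206 CPM). Levels of different genes are not corrected for length.

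The stretches before the start sites of Mrc1, Ms4a7, F10 and Chil3 are printed because they include the pairs set apart by the co-detection values given further on: Mrc1 and Ms4a7 had the highest ratio over the product of their shares in COL 1, and Mrc1 and F10 the lowest. Each is the 250 bases before a RefSeq start site, read 5′ to 3′ on the strand of the gene, from the GRCm38.p6 build. Capitals mark matches to 6 short motifs searched on both strands: GAGGAA (PU.1, the factor that sets the macrophage fate), TTGCNNAA (C/EBP), TGANTCA (AP-1), TTCNNNGAA (STAT), the same ends with 4 free bases between them (STAT6) and ACGTG (hypoxia response).
Mrc1, chr2:14229164-14229413: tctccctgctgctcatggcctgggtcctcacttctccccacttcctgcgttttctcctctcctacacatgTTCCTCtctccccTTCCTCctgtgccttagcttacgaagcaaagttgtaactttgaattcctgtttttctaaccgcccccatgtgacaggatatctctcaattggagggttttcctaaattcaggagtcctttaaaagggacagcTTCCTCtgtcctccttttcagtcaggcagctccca
Ms4a7, chr19:11336147-11336396: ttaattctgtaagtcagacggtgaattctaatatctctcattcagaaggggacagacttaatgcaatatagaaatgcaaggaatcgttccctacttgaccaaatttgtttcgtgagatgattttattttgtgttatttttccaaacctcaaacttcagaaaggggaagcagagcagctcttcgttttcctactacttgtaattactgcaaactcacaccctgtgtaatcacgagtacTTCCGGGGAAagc
F10, chr8:13037058-13037307: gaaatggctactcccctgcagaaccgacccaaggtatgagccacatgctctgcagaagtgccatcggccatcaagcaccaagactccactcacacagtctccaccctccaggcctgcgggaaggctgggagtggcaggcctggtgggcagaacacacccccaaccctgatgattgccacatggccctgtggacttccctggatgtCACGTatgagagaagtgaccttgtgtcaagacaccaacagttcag
Chil3, chr3:106167565-106167814: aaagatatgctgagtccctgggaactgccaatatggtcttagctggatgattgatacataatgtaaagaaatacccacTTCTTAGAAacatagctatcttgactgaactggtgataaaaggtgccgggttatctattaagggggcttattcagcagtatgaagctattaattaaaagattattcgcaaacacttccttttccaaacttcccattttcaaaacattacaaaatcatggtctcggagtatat
The Mrc1 stretch held 3 matches to the PU.1 motif (as TTCCTC, on the other strand), at 180, 167 and 35 bases before the start, and 23.3% of 32851 promoter stretches of this length hold at least 1. Ms4a7 had 1 match to the STAT6 letters at 13 bases before the start printed here (5.85% of promoters) and, before a second RefSeq start site that is not printed, 1 to the AP-1 letters at 81 bases (6.75%). Chil3 had 1 match to the STAT letters at 172 bases (7.02%), and F10 1 to the hypoxia letters at 45 bases (16.6%). The 4 stretches share no motif of the 6. A match is a description of letters and not a binding site. Of the 9 genes, 6 were in the RefSeq promoter table, and F13a1 had 1 PU.1 match, at 66 bases. No entry was there for Arg1, Thbs1 and Fn1.

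Chil3 has a near-identical neighbour, Chil4, so its counts depend on how reads were divided between the pair. Their coding sequences, 1197 and 1209 bases long, share 1141 bases over the length of Chil3 (95.3%) and differ at 56. The last 90 coding bases are shown because the 3′ chemistry used here reads towards this end, with the 9 differing bases in capitals.
Chil3, last 90 coding bases: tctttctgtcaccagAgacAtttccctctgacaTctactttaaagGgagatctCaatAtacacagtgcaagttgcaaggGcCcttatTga
Chil4, the same stretch: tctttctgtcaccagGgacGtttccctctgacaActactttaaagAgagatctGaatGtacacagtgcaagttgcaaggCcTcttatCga
Chil3 had 22 and 6 UMIs over all barcodes of NS 1 and NS 2 and 202 and 253 in COL 1 and COL 2, while Chil4 had 1 or 2 UMIs per library. Reads of the 2 genes cannot be separated further here.

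Over all nuclei of a library the 9 genes were low in the NS group and 9.0 to 60.6 times as high in the COL group. Arg1 stood at 0.606 and 1.03 CPM in NS 1 and NS 2 and at 15.0 and 14.7 CPM in COL 1 and COL 2, a ratio of 18.4 (95% counting interval 15.3 to 22.4). Thbs1 went from 0.555 and 0.524 CPM to 26.5 and 22.4 CPM (45.3, interval 36.2 to 57.3), and Ms4a7 from 0.116 and 0.102 CPM to 4.73 and 8.52 CPM (60.6, interval 37.1 to 106). The lowest ratios were those of Tgfbi (9.0, interval 8.25 to 9.82) and F13a1 (10.1, interval 9.40 to 10.9), and both COL libraries lay above both NS libraries, which the choice of the genes fixes. Sums over all nuclei do not tell more cells of a type from more RNA per cell. In the NS group, Arg1 gave 47 and 71 UMIs in all, of which 6 and 22 lay in oligodendrocytes, and F13a1 gave 375 and 391, of which 163 and 125 lay in neurons.

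Macrophages were 3.61% and 4.64% of the nuclei of COL 1 and COL 2 but held most of the UMIs of 5 of the 9 genes in both libraries. For Arg1 they held 66.8% of 1041 UMIs and 67.1% of 1024 UMIs, and for F13a1 69.0% and 68.5%. F10 (64.6% and 54.0%), Thbs1 (59.3% and 56.6%) and Ms4a7 (56.2% and 57.3%) came next, and Tgfbi was split between the libraries at 55.0% and 45.2%. For Mrc1 macrophages held 52.2% and 30.7% of the UMIs and microglia 12.3% and 21.7%, and for Fn1 52.5% and 41.6% with 6.06% and 10.1% in microglia. Chil3 had the smallest macrophage share in COL 1, 45% (37.2% in COL 2), with 12% and 17.4% in neurons. Nuclei without a class held 15.2% to 34.1% of the UMIs of a gene, and among them single nuclei carried up to 53 UMIs of Arg1 and 59 of F13a1. Nuclei whose macrophage score came first but by too small a lead (85 in COL 1, 84 in COL 2) had Arg1 at 81.1 and 38.5 CPM and F13a1 at 446 and 336 CPM.

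**Figure D2:**
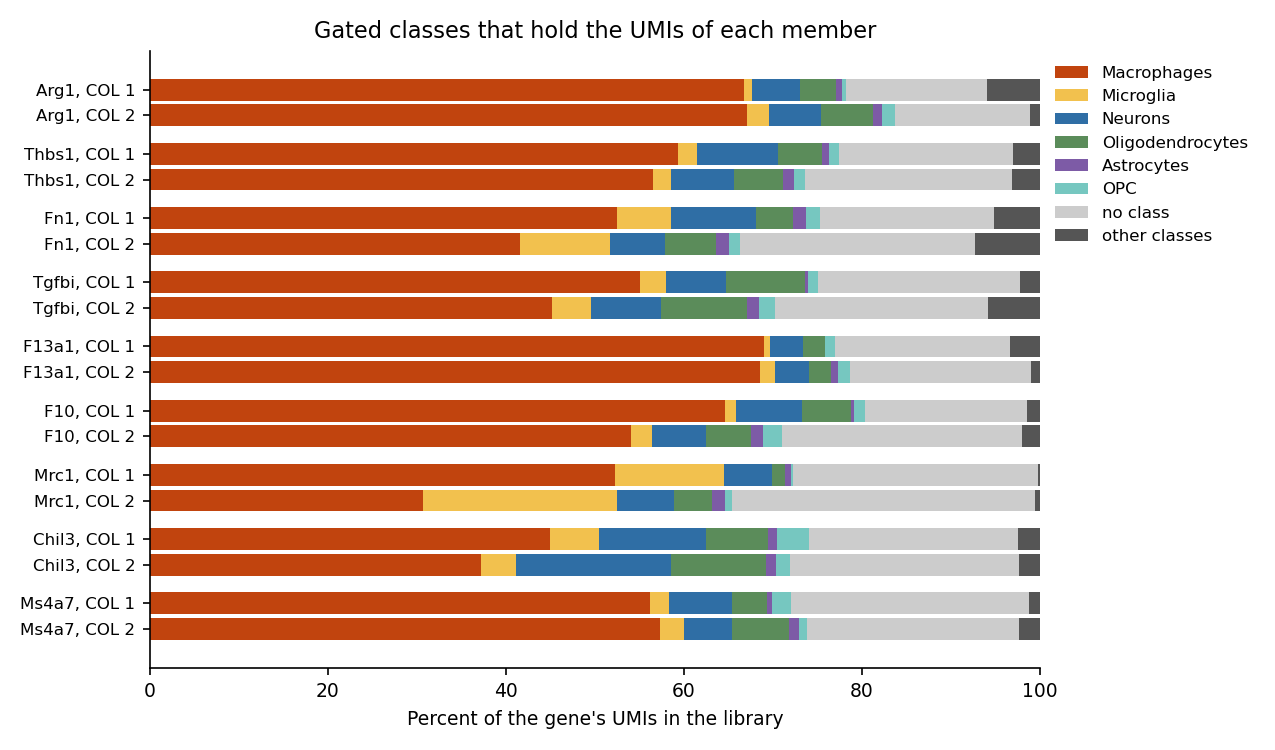
Percent of each gene's UMIs (horizontal axis) in COL 1 and COL 2 by the class of the nucleus; grey bars are nuclei without a class. Macrophages held 66.8% and 67.1% of Arg1 UMIs, whereas microglia held 12.3% and 21.7% of Mrc1 UMIs.

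To compare detection between nuclei of unlike depth, each nucleus was thinned at random to 2000 UMIs, which left out 3 macrophages in each COL library. Arg1 was then detected in 33.6% of 211 macrophages of COL 1 (95% exact interval 27.3 to 40.5) and in 25.3% of 288 of COL 2 (20.4 to 30.8). In neurons of the same libraries, taken as a background, it was detected in 0.312% and 0.342% of nuclei at the same depth. F13a1 was detected in 67.3% and 67.7% of macrophages against 0.812% and 2.22% of neurons, and the neurons of NS 1 and NS 2 had it at 0.902% and 1.19%. Tgfbi was detected in 63.0% and 52.4% against 1.69% and 2.22%, and Chil3, the lowest, in 10.9% and 7.99% against 0.187% and 0.342%. A macrophage held a median of 3 of the 9 genes in both libraries. None of the 9 was detected in 10 macrophages of COL 1 (4.74%) and 24 of COL 2 (8.33%), 8 were detected in 2 and 1 nuclei, and all 9 in no nucleus. Without thinning the median was 4 of the 9, none was detected in 5 and 13 nuclei (2.34% and 4.47%), 8 in 6 and 5 nuclei, and all 9 in 2 nuclei of COL 1.

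Arg1 was seen more often beside each of the other 8 genes but Mrc1 than the product of the shares gives, in both COL libraries. This is a description, with no test and no background of all genes. Thbs1 was detected in 56.3% of the Arg1-positive and 39.3% of the Arg1-negative macrophages of COL 1, and in 69.9% and 30.2% of those of COL 2. Set against that product, the pair was seen 1.25 and 1.73 times as often. For F13a1 the shares were 87.3% against 57.1% in COL 1 and 79.5% against 63.7% in COL 2 (1.30 and 1.17 times), and for Fn1 54.9% against 35.7% and 50.7% against 31.6% (1.30 and 1.39 times). With Mrc1 the libraries differed: the shares were 22.5% against 16.4% in COL 1 and 9.59% against 9.77% in COL 2 (1.22 and 0.99 times). Tgfbi (1.12 and 1.18 times), Ms4a7 (1.15 and 1.13) and F10 (1.04 and 1.40) lay above 1 in both. Chil3 was unlike between the libraries, at 12.7% against 10.0% in COL 1 and 19.2% against 4.19% in COL 2, with only 23 positive nuclei in each (1.16 and 2.40 times). Exact intervals of the shares in Arg1-positive and Arg1-negative macrophages were apart for F13a1 in COL 1. In COL 2 they were apart for Thbs1, Fn1 and Chil3, and in all other cases they overlapped. For F10 in COL 1 the shares were 28.2% (18.1 to 40.1) against 26.4% (19.3 to 34.5).

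Among the other pairs, several lay on the same side of 1 in both libraries. Mrc1 and Ms4a7 were detected together in 16 macrophages of COL 1 and 12 of COL 2, which is 1.77 and 1.54 times the number that the product of their shares gives. Mrc1 and F10 were together in 5 and 2 macrophages, or 0.47 and 0.32 times that number. F10 was seen with Thbs1 1.40 and 1.41 times, with Fn1 1.37 and 1.60 times and with Chil3 1.61 and 2.31 times as often as the product of the shares gives. Ms4a7 and Fn1 were together 0.77 and 0.86 times as often. Over macrophage nuclei at full depth, correlations of log values (214 nuclei in COL 1, 291 in COL 2, of the same libraries) were 0.37 and 0.42 for Thbs1 with F10, 0.36 and 0.39 for Fn1 with Tgfbi and -0.14 in both libraries for Mrc1 with F10. These are descriptions: nuclei of 1 library are not replicates.

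**Figure D3:**
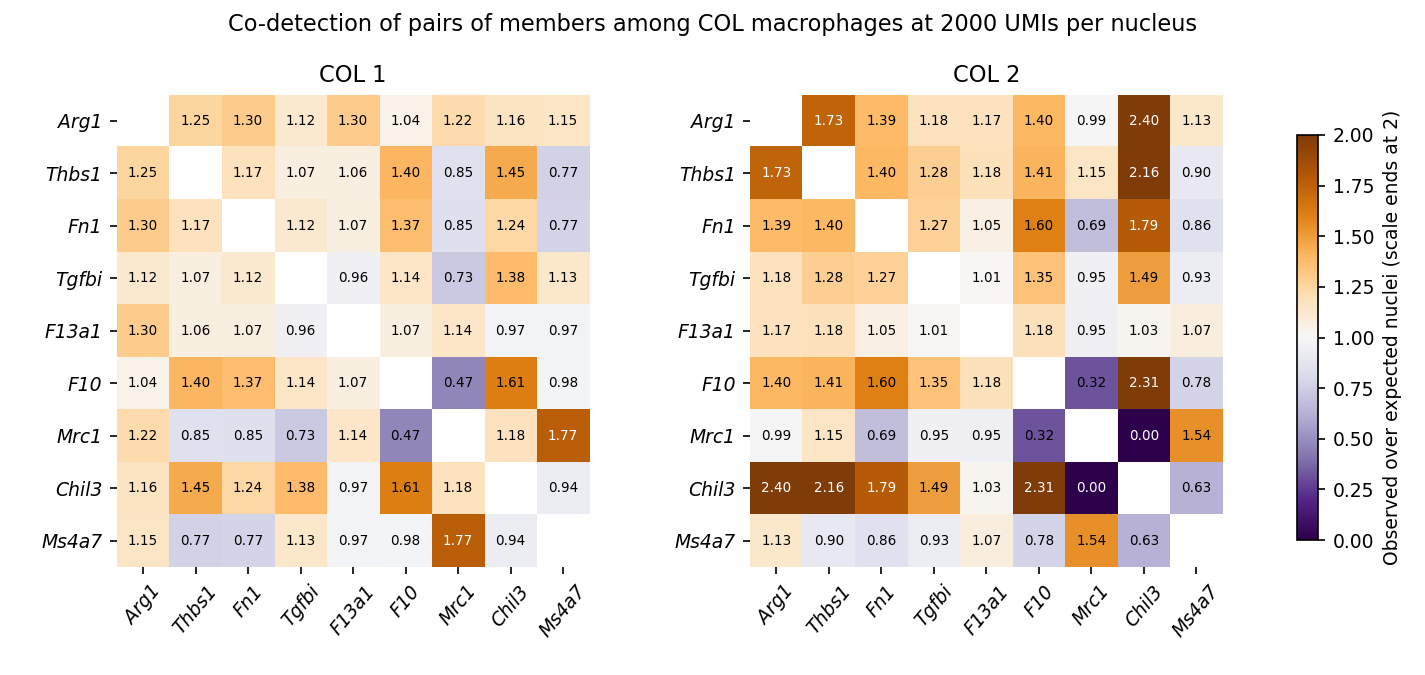
Number of COL macrophages with both genes of a pair over the number that the product of their separate shares gives, at 2000 UMIs per nucleus, in COL 1 (211 nuclei) and COL 2 (288 nuclei). Values above 1 (orange) mean more often together; Mrc1 with Ms4a7 was at 1.77 and 1.54 and Mrc1 with F10 at 0.47 and 0.32.

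Of 6830 genes detected in at least 10% of macrophages in each COL library, the 10 most like Arg1 by the smaller of its correlations in the 2 libraries included Lrp1, Junos, Ccl6, Ftl1, Pf4, Plin2, Vmp1, F13a1 and Ecm1, with r between 0.25 and 0.45. Lrp1, the scavenger receptor that takes up apoptotic cells and haem-haemopexin, came first (0.30 and 0.31), and Ftl1, the light chain of the iron store ferritin, was among them (0.29 and 0.33). Plin2 coats lipid droplets, Ccl6 and Pf4 are chemokines, and Pf4 is also a marker of the macrophage class. Among the 9 genes, F13a1 ranked 9, Fn1 17, Thbs1 21 and F10 37, while Ms4a7 (1046), Chil3 (1824), Tgfbi (2292) and Mrc1 (3465) lay far down. The 5 least like Arg1, by the larger of the correlations in the 2 libraries, were Runx1, Tbc1d16, Ldlrad4, Fcrls and Arhgap15, with r between -0.24 and -0.16. Of these, Ldlrad4 stood at 369 and 570 CPM in macrophages and at 2259 and 1929 CPM in microglia, and Runx1, Tbc1d16 and Fcrls were also higher in microglia of both libraries. Arhgap15 went the other way, with 463 and 683 CPM in macrophages against 130 and 138 CPM. Macrophages with RNA of at least 2 of 5 cell division genes were few, 6 in COL 1 and 12 in COL 2, and held 2 and 0 Arg1 UMIs, or 60.4 CPM (interval 7.32 to 218) and 0 CPM (upper bound 36.6), against 624 and 445 CPM in the other macrophages.

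In microglia, the question was whether the same genes differed between the groups in a resident cell type. Fn1 had 0, 1, 96 and 227 UMIs in the microglia of NS 1, NS 2, COL 1 and COL 2 (0, 1.02, 61.2 and 95.9 CPM), in 358, 364, 315 and 454 nuclei. Mrc1 stood at 2.64, 2.04, 31.9 and 46.9 CPM and Tgfbi at 17.6, 12.3, 42.1 and 50.3 CPM. Fn1 was found in 28 and 58 COL microglia, not in a single nucleus. Arg1 stayed low here, with 2, 0, 9 and 25 UMIs (1.76, 0, 5.74 and 10.6 CPM). F13a1 stood at 1.76, 2.04, 11.5 and 32.5 CPM, and Thbs1 at 0.88, 0, 25.5 and 13.1 CPM. Of the 40 and 31 Thbs1 UMIs in microglia of COL 1 and COL 2, 20 and 8 came from a single nucleus in each library. Of the 18 and 77 F13a1 UMIs, 9 and 17 did. COL microglia were also deeper, with a median of 4050 and 4226.5 UMIs per nucleus against 2384 and 2134, which CPM scales for. Chil3, Ms4a7 and F10 were at 0 in both NS libraries and at 3.19 to 7.01 CPM in the COL libraries. These levels are a description, with 2 libraries a group.

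By edgeR's quasi-likelihood test on UMI sums per library, with Benjamini-Hochberg adjustment over 12357 genes, 5 genes passed the filter on low counts and all 5 were higher in COL microglia, where 16.4% of all genes were called, 7.28% higher and 9.08% lower. With pools as the replicates, p-values here measure the spread between these libraries only. A gene near 0 in the NS group passes that filter only through its COL counts, and the 9 were chosen with these libraries known. Neither this count nor the adjusted p of any of the 9 genes therefore carries weight of its own. The same holds for the counts and adjusted p in oligodendrocytes, astrocytes and OPC given further on. Fn1 was 174 times as high (interval 30.9 to 6876, on 1 NS UMI; adjusted p = 8.78e-05, edgeR) and Mrc1 17.3 times (interval 7.26 to 54.0; log2 fold change 4.05 ± 0.47 (SE); adjusted p = 0.000501, edgeR). Tgfbi rose by 1.64 ± 0.30 on the log2 scale (adjusted p = 0.00454, edgeR), Thbs1 was 38.1 times as high on 1 NS UMI (interval 6.63 to 1528; adjusted p = 0.00344, edgeR) and F13a1 rose by 3.56 ± 0.71 (adjusted p = 0.00696, edgeR). The F13a1 call rests on COL 2: without that library the edgeR adjusted p was 0.0789, and under a stricter gate (a lead of 0.6) F13a1 did not pass the filter. Arg1, Chil3, Ms4a7 and F10 did not pass the filter. Arg1 was 9.13 times as high in COL microglia (interval 2.34 to 78.5, on 2 NS UMIs). Chil3, Ms4a7 and F10, with no NS UMI, stood at 3.76, 4.12 and 3.22 times a floor of 3 UMIs over the NS group. These ratios to a floor carry no counting interval and are not lower bounds.

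**Figure D4:**
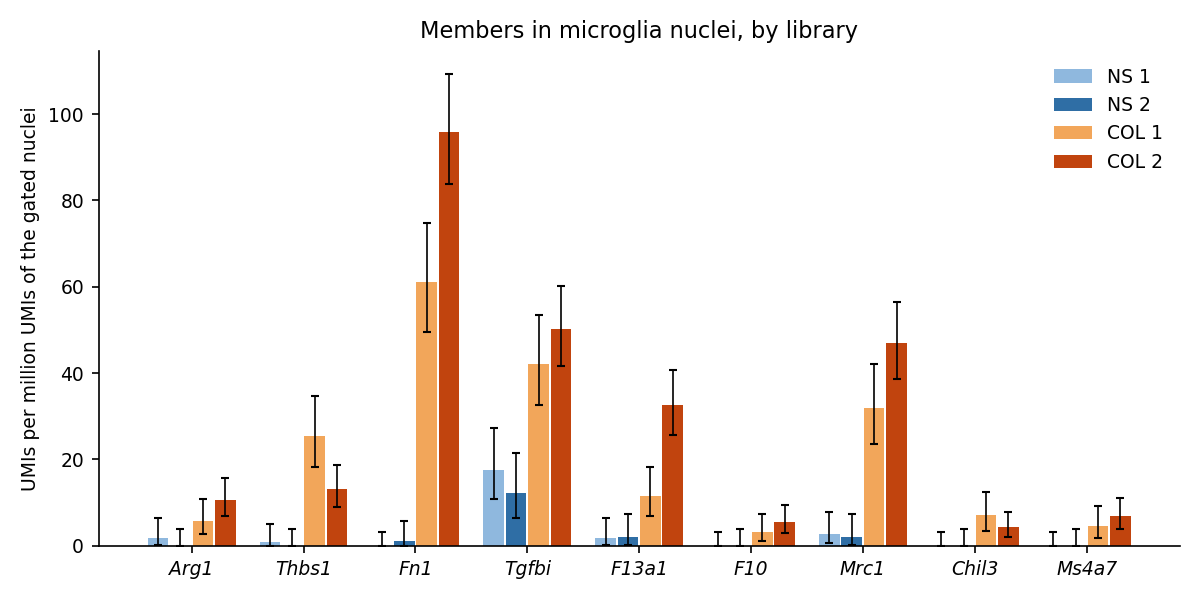
CPM of each gene in the microglia nuclei (vertical axis) in the 4 libraries, with 95% Poisson intervals that cover counting error only. Fn1, Mrc1 and Tgfbi reached 31.9 to 95.9 CPM in the COL libraries, and Arg1 5.74 and 10.6 CPM.

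The summed level of the 16 macrophage markers was also higher in COL microglia. It was 73.1 and 40.8 CPM in NS microglia and 295 and 410 CPM in COL microglia, with 7, 7, 3 and 1 markers at 0. In COL macrophages it was 3773 and 3610 CPM. Dab2 was the largest part of the sum in COL microglia, at 147 and 153 CPM, against 16.7 and 15.3 CPM in NS microglia. The part of this sum in the microglial values was not tested. As a percent of the macrophage level of the same library, and as a description, Mrc1 stood in microglia at 17.1% and 49.1% and Fn1 at 8.42% and 16.9%, while Arg1 stood at 0.944% and 2.53% and F13a1 at 0.675% and 1.71%. Mrc1 was also higher in microglia that held division RNA: those with RNA of at least 2 division genes (56 and 78 nuclei) had 79.0 and 67.0 CPM of Mrc1 against 16.1 and 40.3 CPM in the others (259 and 376 nuclei). Thbs1 stood at 7.65 and 5.15 CPM against 31.4 and 15.7 CPM, but 20 of its 40 UMIs in COL 1 microglia and 8 of 31 in COL 2 came from a single nucleus.

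In the COL libraries all 9 genes were also seen at a low level in neurons, oligodendrocytes, oligodendrocyte precursor cells (OPC) and astrocytes. As a percent of the macrophage level of the same library, the median of the 9 was 0.484 and 1.02 in neurons, 1.15 and 2.00 in oligodendrocytes, 1.29 and 1.68 in OPC and 0.895 and 1.81 in astrocytes, against 2.76 and 3.28 in microglia. The summed macrophage markers were also higher in the COL group there. They went from 51.4 and 58.9 CPM in NS to 89.0 and 146 CPM in COL oligodendrocytes, and from 73.6 and 97.1 CPM to 131 and 148 CPM in OPC. In astrocytes they went from 106 and 130 CPM to 188 CPM in both COL libraries, and in neurons from 27.4 and 58.3 CPM to 63.0 and 91.1 CPM. Their part in the values of the 9 genes was not tested.

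**Figure D5:**
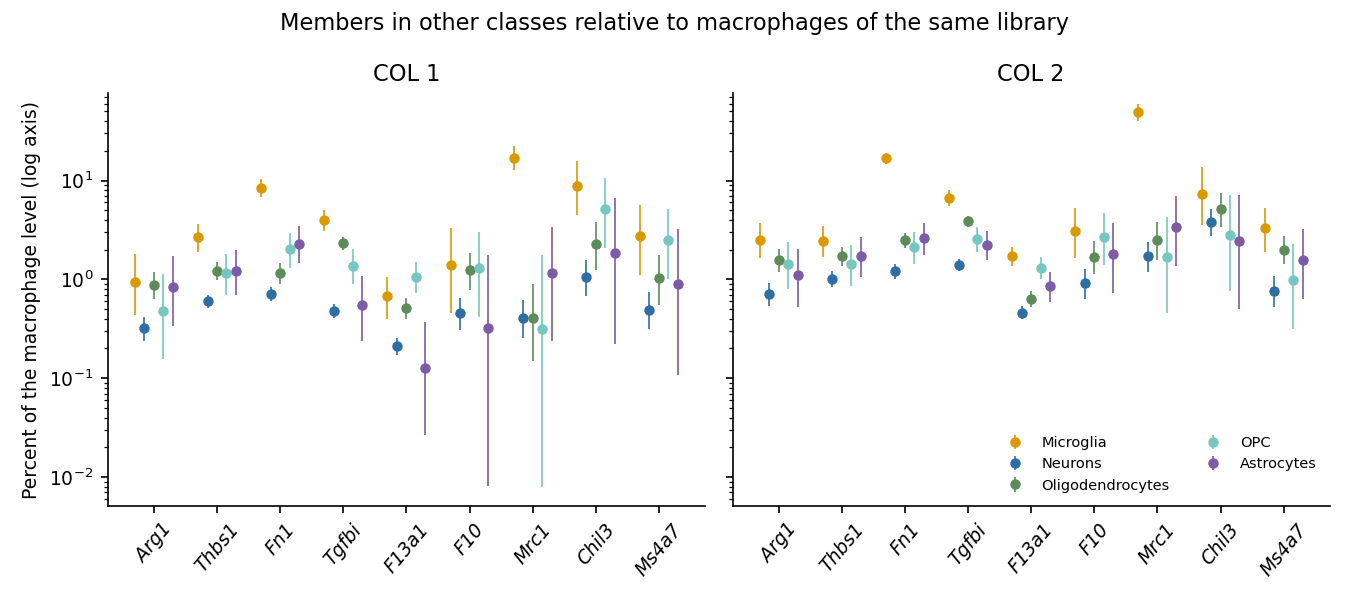
Level of each gene in 5 classes as a percent of its level in macrophages of the same library (vertical log axis) in COL 1 and COL 2; lines are 95% Poisson intervals of the UMIs in the class. Mrc1 (17.1% and 49.1%) and Fn1 (8.42% and 16.9%) in microglia lay above the other classes shown, and Arg1 in neurons lay at 0.318% and 0.71%. Small classes, among them endothelial nuclei with more Fn1, are not shown.

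The edgeR fits within these types gave the following calls. In oligodendrocytes 7 of the 8 genes tested were higher in the COL group, where 22.7% of 16784 genes were called, 9.99% higher and 12.7% lower. Arg1 stood at 0.938, 2.31, 5.34 and 6.51 CPM in NS 1, NS 2, COL 1 and COL 2 (log2 fold change 1.85 ± 0.45, edgeR adjusted p = 0.0185, and 0.0822 without NS 1), and Thbs1 at 0.312, 0.420, 11.6 and 9.23 CPM (4.81 ± 0.46, edgeR adjusted p = 0.000622). F13a1 stood at 0.782, 0.525, 8.77 and 12.1 CPM (4.08 ± 0.42, edgeR adjusted p = 0.000868). Chil3 and Ms4a7, at 0 in both NS libraries, stood at 12.7 and 15.8 times a floor of 3 UMIs over the NS group. Mrc1 did not pass the filter. Tgfbi was the exception, at 19.4, 18.0, 24.5 and 28.9 CPM (0.59 ± 0.19, edgeR adjusted p = 0.0525): it was already present in NS oligodendrocytes, in 115 of 1777 and 158 of 2893 nuclei. Tgfbi was called in 2 of the alternative fits.

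In astrocytes Fn1 stood at 1.23, 0.237, 16.6 and 14.8 CPM in the 4 libraries in the same order, and in OPC Tgfbi stood at 1.67, 1.90, 14.6 and 19.3 CPM. F13a1 in astrocytes overlapped between the groups, at 2.64 and 3.08 CPM in NS and 2.17 and 16.2 CPM in COL. In astrocytes 4 genes passed the filter and were higher by edgeR (log2 fold changes in parentheses), where 13% of 14752 genes were called, 5.36% higher and 7.66% lower: Fn1 (4.30 ± 0.54), Thbs1 (3.83 ± 0.59), Tgfbi (2.45 ± 0.52) and Arg1 (2.14 ± 0.55, edgeR adjusted p = 0.0361), the last with only 6, 5, 7 and 10 UMIs and lost in each fit that left out 1 library (edgeR adjusted p = 0.147 to 0.324). Tgfbi in astrocytes was lost without COL 2 (edgeR adjusted p = 0.236). In OPC 4 genes passed the filter and were higher, where 13.8% of 13613 genes were called, 6.24% higher and 7.61% lower: F13a1 (4.60 ± 0.51), Thbs1 (13.6 times as high on 3 NS UMIs, interval 4.31 to 68.8), Tgfbi (3.30 ± 0.45) and Fn1 (2.15 ± 0.44), with edgeR adjusted p between 0.000559 and 0.0110. Of the 31 and 62 F13a1 UMIs in COL OPC, 22 and 36 came from a single nucleus in each library. Thbs1 and Fn1 in OPC were lost without COL 1 (edgeR adjusted p = 0.0758 and 0.0767), and DESeq2 did not call Fn1 (adjusted p = 0.0775).

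In neurons, all 9 genes were tested and none was called by edgeR, where 0.00469% of 21302 genes (1 gene) were called and 5864 had an unadjusted p under 0.05. Arg1 stood at 0.292, 0.413, 1.93 and 2.97 CPM (2.95 ± 0.44, edgeR adjusted p = 0.0902), and 8 of the 9 had an edgeR adjusted p between 0.0902 and 0.103. DESeq2 called 7 of the 9, beside 1712 of 19987 genes in all. The 9 genes were chosen with these libraries known. Their adjusted p and the counts of them called in neurons, here and below, therefore carry no weight of their own. With a library left out edgeR called 0 of the 9 (and 0 genes in all) without NS 1 or without NS 2, 7 of the 9 beside 924 of 21688 genes without COL 1, and 7 beside 6218 of 22856 genes without COL 2. F13a1 was apart: it stood at 5.29, 6.46, 3.56 and 8.75 CPM, so the NS and COL libraries overlapped, with a ratio of 0.992 (interval 0.839 to 1.17) and a log2 change of 0.18 ± 0.39 (edgeR adjusted p = 0.792).

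Whether the COL effect was larger in microglia than in the mean of neurons, oligodendrocytes, astrocytes and OPC was tested by an interaction in 1 fit over all 5 types. The sums of the 5 types in 1 library came from the same pool of mice, and the fit held no term for the library. As the 9 genes were chosen with these libraries known, this test carries no weight of its own either. Of 9 genes tested 1 passed, where 1.92% of 18137 genes were called, 0.882% higher and 1.04% lower: Fn1, by 4.47 ± 0.94 on the log2 scale (edgeR adjusted p = 0.0192). NS microglia held a single Fn1 UMI, and the edgeR adjusted p was 0.0596 under a stricter gate, 0.602 without NS 1, 0.106 without NS 2 and 0.107 without COL 2. The edgeR adjusted p was 0.558 for Mrc1 (difference 1.82), 0.783 for Arg1 (1.2), 0.752 for Tgfbi (-0.57 ± 0.44) and 0.804 for Thbs1 (1.43 ± 1.28), and none of these passed.

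The remaining classes were small. Fn1 had 4 and 2 UMIs in 7 and 15 endothelial nuclei of NS 1 and NS 2 and 44 and 21 UMIs in 8 and 11 of COL 1 and COL 2, and in pericytes and fibroblasts 0, 1, 18 and 115 UMIs, of which 60 in COL 2 came from 1 nucleus. In COL 1 and COL 2 this was 655 and 354 CPM in endothelial nuclei and 107 and 392 CPM in pericytes and fibroblasts. On these few nuclei Fn1 stood above its microglial level (61.2 and 95.9 CPM). Tgfbi was found in 27 of 53 dendritic cells of COL 2 (290 CPM), a class in which Arg1 was at 0 in all 4 libraries. Single nuclei weighed heavily elsewhere. Of 52 Arg1 UMIs in 65 T and NK nuclei of COL 1, 49 came from 1 nucleus, and of 38 F13a1 UMIs in 6 neutrophil nuclei of COL 1, 37 did.

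Other genes of the same pathways were counted from lists without the markers that set the classes, first in COL macrophages against COL microglia by edgeR, where 24.2% of 12604 genes were called, 13.2% higher and 11.1% lower, and the median log2 fold change of all genes was -0.01. A gene near 0 in microglia passes the filter on low counts only through its macrophage counts. The lists were also chosen with earlier results of these data known, so the counts from them, here and below, carry no weight of their own. In the arginine and polyamine list 2 of 12 genes tested were higher and none lower (median -0.06): Arg2, the mitochondrial arginase (32.4 and 28.0 CPM against 1.91 and 3.38 CPM; 3.40 ± 0.39), and Azin1, which protects ornithine decarboxylase (0.59 ± 0.17, a call that DESeq2 and the fit without the block did not make). Of 11 genes of alternative activation 7 were higher and 1 lower (median 1.54), with Cebpb at 3.02 ± 0.21, Pparg at 2.93 ± 0.29, Vegfa at 2.85 ± 0.26 and Hif1a at 1.46 ± 0.16, and the interleukin 10 receptor Il10ra at -0.79 ± 0.17. Of 8 genes of classical activation 4 were higher and 2 lower (median 0.72). Cd40 (3.60 ± 0.61), Il1b (2.97 ± 0.40), Socs3 (1.47 ± 0.40) and Tnf (1.24 ± 0.28) were higher. Cd86 (-0.92 ± 0.14) and Il1a (-1.34 ± 0.42) were lower. Of 8 coagulation genes 3 were higher and 2 lower (median -0.27): F7 (values above), thrombomodulin, Thbd (3.22 ± 0.56), and Vwf were higher, and the anticoagulant protein S, Pros1 (-2.15 ± 0.17), and Gas6 (-0.80 ± 0.17) lower. DESeq2 did not call Il10ra, Cd40, Socs3, Tnf, Il1a, Vwf and Gas6. The fit without the block did not call Socs3, Tnf, Il1a and Vwf, and Tnf was also lost under the stricter gate.

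Receptors and matrix genes around the secreted members split, with 9 of 22 higher and 7 lower (median 0.20). Cd44, the hyaluronan receptor, stood at 783 and 521 CPM against 44.0 and 36.7 CPM (4.00 ± 0.16), and Cd36, a receptor of thrombospondin 1, at 163 and 124 CPM against 5.10 and 13.1 CPM (3.85 ± 0.27). Itga5, the fibronectin receptor subunit, was higher by 1.58 ± 0.17 and the osteopontin gene Spp1 by 2.73 ± 0.15. The TGF-beta receptors Tgfbr1 (-1.26 ± 0.13) and Tgfbr2 (-1.62 ± 0.13), the matrix gene Sparc (-2.76 ± 0.23) and the integrin chain Itgb3 (-3.29 ± 0.38) were lower. All 6 MS4A genes tested besides Ms4a7 and the marker genes were higher (median 2.81), for example Ms4a14 (30.6 and 38.3 CPM against 0.637 and 0.422 CPM). Ms4a14 was near 0 in microglia, so it passed the filter through its macrophage counts, and the related Ms4a6c and Ms4a4a are macrophage markers. Of 4 lectins beside Mrc1, Clec4d (5.53 ± 0.27), Clec4a2 and Clec7a were higher and Mrc2, a relative of Mrc1, lower (-2.12 ± 0.32). DESeq2 did not call Clec4a2 and Clec7a. No other chitinase-like gene passed the filter.

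The same lists were counted in COL against NS microglia by edgeR, where 7.28% of all genes were called higher and 9.08% lower and the median log2 fold change was -0.02. None of 11 arginine and polyamine genes was called (median -0.23). Of 9 alternative activation genes 4 were higher (median 0.74), among them Il4ra, the receptor chain for interleukins 4 and 13 (22.0 and 14.3 CPM in NS, 47.2 and 87.4 CPM in COL; 1.92 ± 0.35), and Stat3 (0.89 ± 0.16). Of 20 matrix genes 5 were higher and 3 lower (median 0.04): Spp1 (4.54 ± 0.56), Cd44 (3.41 ± 0.41) and Itga5 (1.73 ± 0.28) rose, and the integrin chain Itga9 fell by 1.17 on the log2 scale (SE 0.16). Of 6 coagulation genes 1 was higher and 1 lower (median 0.08). Gas6, a bridging protein between dying cells and phagocytes, rose from 41.4 and 38.8 CPM to 113 and 125 CPM (1.60 ± 0.20), and F3, tissue factor, fell by 2.02. Of 3 lectins Clec7a rose (2.98 ± 0.66), a call lost without COL 2, and Clec4a2 fell by 1.29 (median 0.24). The calls of F3 and Clec4a2 were lost with DESeq2 and without either NS library. Tnf was the 1 of 5 classical activation genes called (2.28 ± 0.62), and the call was lost with DESeq2 and without either NS library. Neither of the 2 MS4A genes tested nor the 1 chitinase-like gene was called (medians 0.62 and -0.27).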

How the data were processed

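Nuclei of the thalamus were read on a droplet platform with 3′ chemistry. The files hold raw UMI counts by gene and nucleus for the 4 libraries, which the authors made with Cell Ranger 1.2.0 and the mm10 build per the submitters' processing notes, and these counts were used as they stand. The library totals ran from 68746459 to 77557870 UMIs, which sets the counting intervals (95%, Poisson or exact binomial). Whether intronic or stranded reads were counted is not given in the sources used here. Nuclei with more than 50 genes and under 5% mitochondrial UMIs were kept. Each was given to 1 of 14 classes by the highest mean z score of its markers (log values per 10000 UMIs, limited to 10), if that led by more than 0.3 and at least 3 markers were detected. Levels are CPM of UMIs summed per class and library, and detection was compared after thinning to 2000 UMIs. A floor of 3 counts was used where a group had none. COL was compared with NS in classes with at least 20 nuclei in every library, by edgeR 4.0.16 (TMM, filterByExpr, quasi-likelihood test, Benjamini-Hochberg threshold 0.05; R 4.3.3, limma 3.58.1). COL macrophages were set against COL microglia with the library as a block, and the shares of nuclei by an exact permutation test.

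The 9 genes and the context lists were chosen with earlier results of these data known. All 9 genes are named, with up to 4 called genes per list and direction by adjusted p, and the 10 most and 5 least like Arg1, of which 1 is not reported here. Alternatives were a lead of 0.6, at least 500 genes, doublet removal, DESeq2 1.42.0, no TMM factors, no filter, thinning to 1000 UMIs or none, the replicate block, and each library left out. The lead of 0.3, and the removal of the 5% of nuclei with the highest Scrublet scores (scanpy 1.11.5, Python 3.11.15), were set after the data were seen, since the automatic threshold found almost no doublet in NS 1. In the main values no doublets were removed. The fits were tested on simulated counts.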

Additional observations from a re-analysis of the deposited data

Results flagged for a closer look

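The difference in the COL effect on Fn1 between microglia and the mean of neurons, oligodendrocytes, astrocytes and OPC passed the threshold of the test of a difference between cell types, in a fit where the types of 1 library share a pool of mice and no term stands for the library. Fn1 was chosen with these libraries known, so the call carries no weight of its own. It was 4.47 ± 0.94 on the log2 scale (edgeR adjusted p = 0.0192). In microglia Fn1 had 0 and 1 UMIs in NS 1 and NS 2 and 96 and 227 UMIs in COL 1 and COL 2. The difference was 2.76 without NS 1, 9.43 without NS 2, 4.71 without COL 1 and 4.22 without COL 2, and of these 4 fits edgeR called it without COL 1 only. Under a stricter gate the edgeR adjusted p was 0.0596.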

How the results depend on the processing

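The groups held 2 libraries each, so calls rest on few pools, and leaving out a library left an arm with 1 sample, assumed to vary like the others. Over all genes, COL against NS in microglia gave 2022 calls, 859 by DESeq2 and 994 to 2740 with 1 library left out, and without the filter 9 of the 9 genes were called beside 2780 of 25957 genes in all, those at 0 in NS through their COL counts alone. In neurons 1 call became 1712 by DESeq2, 4275 without the filter, 0 without TMM factors and 0 under the stricter gate, with 0 to 6218 when a library was left out; of the 9 genes 7, 8 and 0 to 7 were called by DESeq2, without the filter and with a library left out, while F13a1 ranged from -0.51 to 0.62. In oligodendrocytes 3807 calls ranged from 2132 to 6362 with a library left out. Astrocytes gave 1921 calls, 1026 by DESeq2, 3071 without the filter and 747 to 1981 with a library left out; of the 9 genes 4, 3, 7 and 2 to 4 were called in that order. OPC gave 1885, 701 by DESeq2, 2835 without the filter and 634 to 1744; of the 9 genes again 4, 3, 7 and 2 to 4 were called, and with doublets removed 3 in both types. The interaction gave 348 calls, 552 without the filter and 0 to 263 with a library left out, with 1 of the 9 genes, 0 under the stricter gate and 0 to 1 with a library left out; Arg1 then ranged from -0.037 to 6.90 and Mrc1 from -0.28 to 2.46. Macrophages against microglia gave 3055 calls, 1143 by DESeq2 and 1837 without the replicate block. With a library left out, the lowest counts came without NS 2 in microglia and oligodendrocytes, without NS 1 or NS 2 in neurons, without COL 1 in astrocytes and OPC and without NS 1 for the interaction. The highest came without COL 2, or without COL 1 for the interaction. The cause of these changes was not tested.

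With the replicate number as a block there were 2733 calls in microglia, 1696 in neurons (7 of the 9 genes), 4780 in oligodendrocytes, 2919 in astrocytes, 2708 in OPC and 481 for the interaction. The deviations of same-numbered libraries correlated at 0.03 to 0.15, and the numbers mark no shared animals, so the block is not a pairing.

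Under the stricter gate F13a1 in macrophages was 1990 CPM (from 1800) and Ms4a7 in microglia 3.74 (from 5.61), and macrophages held 64.2% of Arg1, 52.4% of Thbs1, 61.6% of F13a1 and 47.9% of Ms4a7 UMIs (from 66.9%, 57.9%, 68.8% and 56.7%). With doublets removed they held 68.4% of Arg1, 71.8% of F13a1 and 58.2% of Ms4a7 UMIs. Co-detection with Arg1, as the mean ratio of the 2 COL libraries, was 1.10 for Mrc1, 1.35 for Fn1, 1.15 for Tgfbi, 1.14 for Ms4a7 and 1.22 for F10. Thinned to 1000 UMIs it was 1.28, 1.52, 1.27, 1.02 and 1.59 in that order. Without thinning it was 1.22 for Fn1 and 1.09 for Tgfbi, under the stricter gate 0.90 for Mrc1 and 1.27 for Ms4a7, and with doublets removed 1.25 for Fn1. For Mrc1 the ratio thus lay on both sides of 1.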

Other observations

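Values of the 9 genes in nuclei that belong to no class of the report are given here. In the 1943 and 2182 nuclei without a class of COL 1 and COL 2, Thbs1 stood at 14.1 and 12.3 CPM, Tgfbi at 19.4 and 22.2 CPM and Arg1 at 6.43 and 5.30 CPM, against 0.46 and 0.48 CPM, 2.72 and 2.00 CPM and 0.63 and 0.98 CPM in the 3201 and 3728 such nuclei of NS 1 and NS 2. Over these nuclei F13a1 had the lowest ratio of the COL to the NS group, 4.14 (counting interval 3.71 to 4.64), and Ms4a7 the highest, 32.1 (16.0 to 75.2). In NS 1 and NS 2 the F13a1 UMIs of nuclei without a class lay in 138 and 161 nuclei, at most 6 in 1 nucleus.

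Pairs of the genes with macrophage markers were also counted in COL microglia. Fn1 came with Dab2, a clathrin adaptor, in 6 nuclei of COL 1 and 13 of COL 2, where the product of the shares gives 1.95 and 6.41, and with Msr1, a scavenger receptor, in 5 and 6 nuclei, where it gives 0.816 and 2.20. With Lyz2, the lysozyme of myeloid cells, Fn1 came in 1 and 5 nuclei, where it gives 0.71 and 5.44. No test was made of these few nuclei.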
